A study of Mus musculus with 49 samples.

Results

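The genes beside the loci of the dopamine receptors Drd1 and Drd2 were examined in medium spiny neurons (MSNs) of the D1 and D2 types from the mouse nucleus accumbens, as measured by nuclear-FACS, whole cell-FACS and RiboTag RNAseq. They were 9 of the 52636 genes in the count table, each within 200 kb of a receptor gene: Sfxn1, Gm48550, Gm34557, E130119H09Rik and Gm18974 beside Drd1, and Ankk1, Ttc12, Ncam1 and Gm11149 beside Drd2. The list was taken by name and left out 5 further genes of the same windows (Gm18473, Hrh2, Gm16578 and Gm48615 beside Drd1 and Gm4894 beside Drd2), which are given separately. The question was how much each neighbour differed between D1- and D2-MSNs in each method, and whether that difference was the same across methods.

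The nuclear-FACS groups held 6 D1 and 5 D2 libraries from frozen tissue of mice that carried Drd1-cre or Drd2-cre with the Thy1-loxP-STOP-loxP-EGFP-F reporter, whose nuclei were sorted on EGFP. The whole cell-FACS groups held 8 D1 and 6 D2 libraries from fresh, papain-dissociated tissue of mice heterozygous for a fluorophore in the cytoplasm under the Drd1 or the Drd2 promoter. The RiboTag groups held 6 D1 and 6 D2 libraries labelled male and 5 D1 and 5 D2 libraries labelled female, from Drd1-cre or Drd2-cre mice with the Rpl22-HA allele, whose HA-tagged ribosomes were immunoprecipitated from fresh tissue. The nuclear-FACS and whole cell-FACS mice were male, all mice were on a C57BL/6J background and each library came from 1 mouse. The age of the mice, the Cre and reporter founder lines, and the size and site of the Drd1- or Drd2-driven transgenes were not given in the sources used here. Every D1 library came from mice with a Drd1-driven transgene and every D2 library from mice with a Drd2-driven one, so the effect of cell type and that of transgene cannot be told apart at these loci in any of the comparisons. These are bulk samples, in which fewer cells of a type and less RNA per cell cannot be told apart.

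MSNs are the projection neurons of the striatum, and their main classes are told apart by the dopamine receptor they make: Drd1 couples to stimulatory and Drd2 to inhibitory G proteins. Mice that express Cre or a fluorophore in one class are commonly made by placing the coding sequence under the regulatory DNA of Drd1 or Drd2, often as part of a long genomic fragment that can hold neighbouring genes. Among the neighbours, Sfxn1 encodes sideroflexin 1, a serine transporter of the inner mitochondrial membrane. Ankk1 encodes an ankyrin repeat protein with a kinase domain, and lies so close to Drd2 that variants in the human gene have long been studied as DRD2 variants. Ttc12 encodes a tetratricopeptide repeat protein needed for the assembly of the dynein arms of motile cilia, and Ncam1 encodes the neural cell adhesion molecule. Gm34557 and Gm48550 are annotated as long intergenic non-coding RNAs, E130119H09Rik as a processed transcript, Gm18974 as a processed pseudogene and Gm11149 as an antisense transcript, and no role is given here for these 5.

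On the GRCm38 build, Drd1 lies on the minus strand at chr13:54051183-54055705. Sfxn1 (chr13:54071869-54108342, plus strand) starts 16.2 kb from it at higher coordinates, on the side of the Drd1 start. The other 4 lie on the opposite side: Gm48550 (chr13:53968944-53976666, plus strand) at 74.5 kb, Gm34557 (chr13:53921313-53934788, minus strand) at 116 kb, E130119H09Rik (chr13:53912263-53915748, minus strand) at 135 kb and Gm18974 (chr13:53888627-53890855, plus strand) at 160 kb. Drd2 lies on the plus strand at chr9:49340627-49408177 and its neighbours follow its end. Ankk1 (chr9:49415194-49427021, minus strand) ends 7.02 kb from it, Ttc12 (chr9:49436963-49486225, minus strand) 28.8 kb and Ncam1 (chr9:49502136-49798925, minus strand) 94.0 kb. Gm11149 (chr9:49518288-49572591, plus strand) lies 110 kb from Drd2, within the span of Ncam1 and antisense to it. Reads were counted without strand over whole gene bodies, introns included, so reads of Ncam1 and Gm11149 cannot be told apart and the pair is not independent. The Drd1 group with Drd1 spans 219.716 kb and the Drd2 group with Drd2 spans 458.299 kb.

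Promoter sequence is shown for the receptors and for the neighbours whose levels moved with them, so that what lies before their starts can be compared. Each run is the 250 bases before a RefSeq transcription start on GRCm38.p6, written 5′ to 3′ on the gene's own strand, and capitals mark the matches to the motifs searched. The runs lie at chr13:54055659-54055908 for Drd1, chr13:54071595-54071844 for Sfxn1, chr13:53935284-53935533 for Gm34557, chr13:53915749-53915998 for E130119H09Rik, chr9:49340153-49340402 for Drd2 and chr9:49486226-49486475 for Ttc12.
Drd1: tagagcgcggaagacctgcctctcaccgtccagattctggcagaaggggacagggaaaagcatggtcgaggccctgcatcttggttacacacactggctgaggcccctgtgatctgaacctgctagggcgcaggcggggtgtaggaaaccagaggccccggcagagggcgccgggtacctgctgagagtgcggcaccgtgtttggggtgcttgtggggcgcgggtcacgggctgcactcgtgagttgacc
Sfxn1: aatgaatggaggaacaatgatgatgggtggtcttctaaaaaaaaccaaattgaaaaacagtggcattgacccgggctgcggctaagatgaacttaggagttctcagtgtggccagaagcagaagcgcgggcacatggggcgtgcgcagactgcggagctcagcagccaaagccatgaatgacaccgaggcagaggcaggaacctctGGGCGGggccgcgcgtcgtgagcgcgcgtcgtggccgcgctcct
Gm34557: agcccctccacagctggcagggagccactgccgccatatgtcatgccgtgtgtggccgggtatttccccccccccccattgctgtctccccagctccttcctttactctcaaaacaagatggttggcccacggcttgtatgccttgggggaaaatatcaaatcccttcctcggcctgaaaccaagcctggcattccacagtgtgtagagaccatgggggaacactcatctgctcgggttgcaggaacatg
E130119H09Rik: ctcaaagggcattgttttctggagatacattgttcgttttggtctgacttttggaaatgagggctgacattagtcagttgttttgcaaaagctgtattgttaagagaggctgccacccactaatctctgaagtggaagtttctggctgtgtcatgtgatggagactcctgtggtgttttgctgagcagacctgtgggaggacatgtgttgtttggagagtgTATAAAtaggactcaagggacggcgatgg
Drd2: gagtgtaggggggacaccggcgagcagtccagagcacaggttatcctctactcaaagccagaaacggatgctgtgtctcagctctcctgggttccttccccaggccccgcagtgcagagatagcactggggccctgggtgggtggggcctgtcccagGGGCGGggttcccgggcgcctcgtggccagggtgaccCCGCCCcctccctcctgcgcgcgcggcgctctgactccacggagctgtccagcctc
Ttc12: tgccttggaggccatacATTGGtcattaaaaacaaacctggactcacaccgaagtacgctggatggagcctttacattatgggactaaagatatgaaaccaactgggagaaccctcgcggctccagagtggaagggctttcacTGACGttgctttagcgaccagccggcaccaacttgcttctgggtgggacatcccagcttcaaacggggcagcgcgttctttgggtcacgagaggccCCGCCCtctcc

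Of the 9 neighbours and 2 receptors, 7 had a RefSeq promoter entry. The motifs searched on both strands were the GC box GGGCGG, present in 32.7% of the 32851 mouse promoters of the same length, the CCAAT box (33.8%), the TATA box TATAAA (12.4%) and TGACG, the core of a cAMP response element (17.8%). Drd2 held GC boxes 93 to 88 and 56 to 51 bases before its start, and Sfxn1 held one 44 to 39 bases before its start. Ttc12 held a GC box 11 to 6 bases before its start, a CCAAT box at 233 to 229 and TGACG at 107 to 103. E130119H09Rik held a TATA box 29 to 24 bases before its start, while none of these letters were found in the windows of Gm34557 or of the start shown for Drd1. A second RefSeq start of Drd1 (window chr13:54054781-54055030, not shown) held a GC box 133 to 128 bases before it. The GC content was 64.0% for Drd1, 58.0% for Sfxn1, 57.2% for Gm34557, 45.6% for E130119H09Rik, 68.8% for Drd2 and 54.8% for Ttc12, against a median of 52.4% over all promoters. A match of letters is a description of the sequence and not a site of binding.

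Libraries held 3701255 to 68777008 counts in nuclear-FACS, 10476223 to 27965357 in whole cell-FACS and 24076888 to 45641342 in RiboTag. Of 5 D1-MSN and 5 D2-MSN marker genes, all 10 were called toward their label in whole cell-FACS, and in RiboTag all 5 D2 and 4 of 5 D1 markers were, in each sex. In nuclear-FACS, Drd1 was the only one of 4 tested D1 markers called higher in D1, and of 4 tested D2 markers Drd2 was called higher in D2 while Penk, the enkephalin precursor, was called higher in D1 (-2.41 log2, edgeR adjusted p = 0.00923). The summed FPKM of the D2 markers there was 15.3 to 111 in the D1 libraries and 4.97 to 16.8 in the D2 libraries, so the D2 nuclear label rests on Drd2 alone among these markers. In whole cell-FACS the filters left 0 of 5 astrocyte, 0 of 5 endothelial and 0 of 4 cholinergic interneuron markers to test, 1 of 5 microglia, 1 of 4 GABA interneuron and 2 of 5 oligodendrocyte markers were tested, and none of these passed. Of 12 RiboTag libraries labelled male, 6 (D1 numbers 1 to 4 and D2 numbers 2 and 6) held more than 1 CPM of Xist. Their summed CPM of 4 Y-linked genes was 0.0348 to 1.78, against 8.54 to 10.7 in the other 6 and 0 to 0.246 in the libraries labelled female, and results in the male group are also given without them. For RiboTag, the words male, female and sex refer here and below to the labels alone. Reads from stretches with no known expression were estimated from 1431 olfactory and vomeronasal receptor genes, as counts per kb of gene span. Extended over all gene spans, this background came to 0.578 to 22.2% of counts in nuclear D1, 32.4 to 52.2% in nuclear D2, 13.5 to 52.4% in whole cell D1, 8.33 to 36.7% in whole cell D2 and 0.0257 to 0.0631% in RiboTag. "Times background" below is a gene's count per kb divided by that of these receptor genes in the same library.

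In whole cell-FACS, all 5 neighbours of Drd1 were higher in D1-MSNs and Ankk1 and Ttc12 were higher in D2-MSNs, by 4.72- to 23.5-fold, while Ncam1 and Gm11149 did not pass the test. The 7 called neighbours stand against 0.984% of all 16355 tested genes called in either direction, 0.654% higher in D1 and 0.33% higher in D2. Each of the 7 reached the filter's 1 FPKM only in the group in which it was higher, so passing the filter adds no support. Without the FPKM filter, Sfxn1, Gm34557, E130119H09Rik, Ankk1 and Ttc12 were called, where 0.102% of all genes were. In the values below FPKM is per kb of gene span, scaled within each method, and fold changes are from edgeR with positive log2 values for higher in D2.

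Sfxn1, the mitochondrial serine transporter, had an FPKM of 4.48 at the lowest, 7.74 at the median and 12.2 at the highest of the 8 whole cell D1 libraries, and of 0.449, 0.495 and 0.757 in the 6 D2 libraries. The groups did not overlap, and every D1 library was several-fold above every D2 library. The log2 change was -3.99 ± 0.25 (SE, adjusted p = 8.98e-09), a 15.9-fold higher level in D1. Drd1 itself changed by -5.04 ± 0.56 (33.0-fold, adjusted p = 2.76e-05), with an FPKM of 12.2 to 81.3 in D1 and 0.0914 to 4.22 in D2.

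Gm34557, the non-coding RNA at 116 kb, had an FPKM of 3.24, 3.81 and 5.79 at the lowest, median and highest whole cell D1 library and of 0.129, 0.418 and 0.767 in D2. Its D1 libraries were close to each other and far above those of D2, with a log2 change of -3.47 ± 0.41 (11.1-fold, adjusted p = 5.11e-05). E130119H09Rik had an FPKM of 2.42, 3.22 and 4.59 in D1, while in D2 it was at 0 in 2 of 6 libraries, at 0.0798 at the median and at 0.659 at the highest. Its log2 change was -4.55 ± 0.75 (23.5-fold, adjusted p = 0.00451). Without whole cell D2 number 2, the library with the highest value, the change was -5.83.

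Gm48550, the nearest of the non-coding neighbours to Drd1, had an FPKM of 1.38, 2.18 and 3.30 in D1 and was at 0 in 2 of 6 D2 libraries, with a median of 0.321 and a highest value of 0.936. Its log2 change was -3.05 ± 0.63 (adjusted p = 0.0262). Gm18974, the pseudogene at 160 kb, had an FPKM of 1.89, 2.56 and 3.39 in D1 and was at 0 in 4 of 6 D2 libraries, the others being 0.0270 and 0.742. Its log2 change was -4.46 ± 0.96 (adjusted p = 0.0313), resting on 732 counts summed over D1 and 22 over D2. A near-identical parent gene can share reads with a pseudogene, so the level of Gm18974 is uncertain. The calls of these 2 genes were the least stable. The call of Gm18974 was lost when whole cell D1 number 1, 2, 3, 4, 5 or 7 or D2 number 3 or 4 was left out, and its change was -7.76 without D2 number 6. That of Gm48550 was lost without D1 number 1 or 2 or D2 number 4 or 6, and neither gene was called without the FPKM filter (adjusted p = 0.0801 and 0.131, where 0.102% of all genes were called).

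On the Drd2 side, Ankk1 had an FPKM of 0.133, 0.319 and 0.526 at the lowest, median and highest whole cell D1 library and of 3.45, 5.34 and 6.06 in D2. The groups did not overlap, and the log2 change was 3.67 ± 0.35 (12.8-fold, adjusted p = 4.22e-06). Ttc12, the cilium assembly gene, had an FPKM of 0.227, 0.361 and 0.649 in D1 and of 1.00, 2.43 and 3.01 in D2. All 6 D2 libraries were again above all 8 D1 libraries, with a log2 change of 2.24 ± 0.36 (4.72-fold, adjusted p = 0.00351). Drd2 changed by 5.23 ± 0.42 (37.4-fold, adjusted p = 3.44e-07), with an FPKM of 0.180 to 0.643 in D1 and 7.31 to 46.2 in D2.

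Ncam1, which begins beyond Ttc12, had overlapping groups in whole cell-FACS, with an FPKM of 0.718 to 1.93 in D1 and 1.07 to 2.07 in D2 and a log2 change of 0.19 ± 0.16 (adjusted p = 0.713). Gm11149, which shares its reads, changed by 0.05 ± 0.15 (adjusted p = 0.948). Over all libraries, 5 neighbours had every D1 library above every D2 library, 2 had the opposite order and 2 overlapped, where 0.342% of tested genes were free of overlap in each direction.

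**Figure D1:**
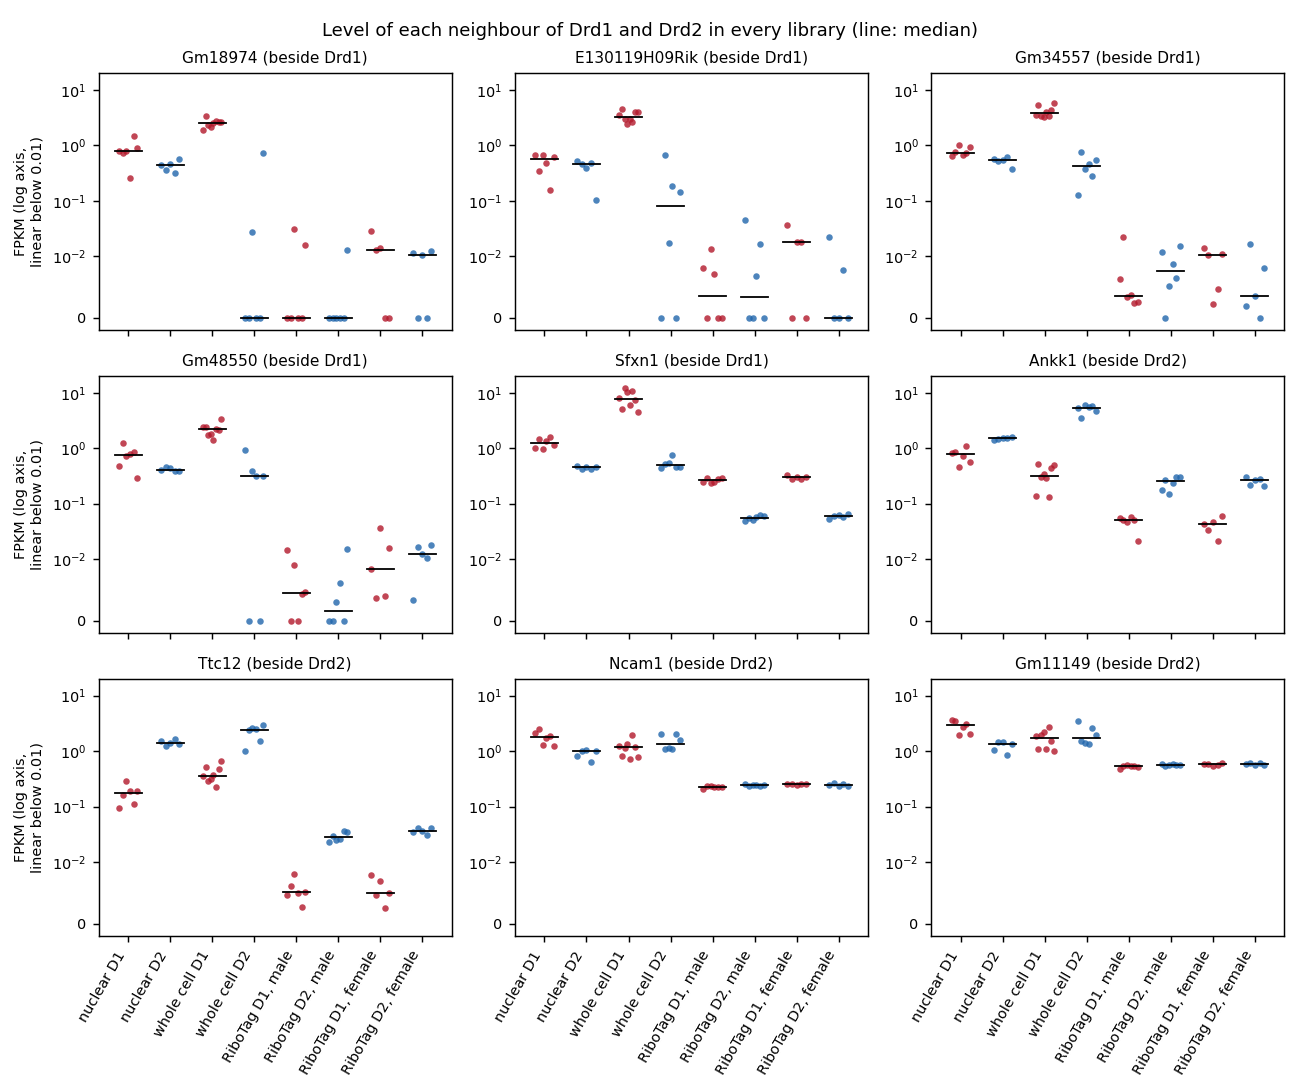
FPKM per kb of gene span (log axis, linear below 0.01) of each of the 9 neighbours in each library of the 8 groups, with D1 in red, D2 in blue and a line at the median. The D1 and D2 points of Sfxn1, Ankk1 and Ttc12 are apart in all 4 comparisons, and those of the non-coding Drd1 neighbours are widest apart in whole cell-FACS.

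In nuclear-FACS, 3 of the 8 neighbours tested were called: Sfxn1 was higher in D1 and Ankk1 and Ttc12 were higher in D2. The calls stand against a background of 12.2% of the 9228 tested genes, 9.06% higher in D1 and 3.19% higher in D2. Sfxn1 and Ttc12 reached the filter's 1 FPKM only in the group in which they were higher. Sfxn1 had an FPKM of 0.951, 1.27 and 1.58 at the lowest, median and highest of the 6 nuclear D1 libraries, and of 0.479, 0.425, 0.462, 0.420 and 0.467 in D2 numbers 1, 2, 3, 5 and 7. The groups did not overlap, as for 22.6% of tested genes with D1 higher, and the log2 change of -0.68 ± 0.17 was a 1.60-fold higher level in D1 (adjusted p = 0.0186). The call was lost when nuclear D2 number 2, 3, 5 or 7 was left out, with changes between -0.87 and -0.59 over all libraries left out in turn.

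Ankk1 had an FPKM of 0.463, 0.776 and 1.10 at the lowest, median and highest nuclear D1 library and of 1.40, 1.47, 1.51, 1.55 and 1.58 in the 5 D2 libraries. It rose by 1.86 ± 0.15 on the log2 scale (3.62-fold, adjusted p = 5.96e-05). Ttc12 had an FPKM of 0.0949, 0.174 and 0.291 in D1 and of 1.50, 1.23, 1.39, 1.65 and 1.36 in D2. Its log2 change was 3.64 ± 0.37 (12.5-fold, adjusted p = 4.87e-04), beside 1.74 ± 0.21 for Drd2 (adjusted p = 0.00221), and whether these genes differed from each other was not tested. For Ankk1 and Ttc12 every D2 nuclear library was above every D1 library, which 2.69% of tested genes also showed. The groups of Drd2 overlapped, with an FPKM of 1.00 to 3.45 in D1 and 2.28 to 4.83 in D2. Markers of other cells also moved in these libraries. Sst of 2 tested GABA interneuron markers (-1.91), Cnp of 5 oligodendrocyte markers (-0.96) and Gja1 of 4 astrocyte markers (-0.60) were called higher in D1. Of the same lists, Npy was at -0.88, Gfap at 1.04, Slc1a3 at -0.34, Aqp4 at -0.32, Mag at 0.18, Mbp at -0.05 and Mog at -0.01, and none of these passed. The summed FPKM of 4 GABA interneuron markers was 5.15 to 26.4 in D1 and 2.59 to 4.12 in D2, and that of 5 oligodendrocyte markers 15.1 to 40.1 and 5.34 to 13.8. The sum of 5 markers of ependymal and other ciliated cells, none of which passed the filters, went the other way, at 0.301 to 1.36 in D1 and 1.61 to 2.49 in D2. Sums of 5 endothelial markers (0.277 to 1.77 and 1.52 to 2.46) and 4 cholinergic interneuron markers (0.391 to 1.53 and 1.01 to 1.55) also tended higher in D2. The sums that were higher in D2 were low and not corrected for background. That background had a median of 0.0352 CPM per kb in nuclear D1 and 0.268 in nuclear D2. Cells and background therefore cannot be told apart in these sums. In whole cell-FACS the ependymal and ciliated sums overlapped, at 1.38 to 2.85 in D1 and 0.799 to 3.14 in D2. The part of these other cells in the neighbours' levels was not tested.

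The non-coding neighbours of Drd1 were not called in nuclear RNA. The log2 changes were 0.12 ± 0.28 for Gm34557 (adjusted p = 0.792), -0.13 ± 0.45 for Gm18974 (adjusted p = 0.864) and -0.01 ± 0.31 for Gm48550 (adjusted p = 0.986). Gm34557 had an FPKM of 0.655 to 1.02 in D1 and of 0.373 to 0.612 in D2. E130119H09Rik did not pass the FPKM filter, and its mean log2 CPM in D2 less that in D1 was -0.66 (exact permutation test, two-sided, p = 0.264, the smallest possible being 0.0021645). Drd1 changed by -1.75 ± 0.30 (adjusted p = 0.00923).

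Ncam1 had an FPKM of 1.26, 1.78 and 2.49 at the lowest, median and highest nuclear D1 library and of 0.810, 1.01, 1.03, 0.643 and 0.991 in D2, so that the groups did not overlap. Its fitted log2 change was -0.20 ± 0.14 (adjusted p = 0.346), and that of Gm11149 was -0.39 ± 0.13 (adjusted p = 0.0509). The FPKM were scaled over all genes and the fit over the genes that passed the filters, and in nuclear-FACS this choice shifted the changes. Without the FPKM filter the changes of the 9228 genes shifted by a median of -1.13, and 23.6% of 30791 genes were called, 19.3% higher in D1 and 4.34% in D2. Under that scaling Sfxn1 was at -1.78 (adjusted p = 0.00311), Ncam1 at -1.32 (adjusted p = 0.00565), Gm11149 at -1.51 (adjusted p = 0.00565), Gm34557 at -0.91 (adjusted p = 0.0101) and Gm48550 at -1.09 (adjusted p = 0.0414). Ttc12 remained called at 2.72 (adjusted p = 6.57e-04), while Ankk1 at 0.69 (adjusted p = 0.0565) and Drd2 at 0.57 (adjusted p = 0.171) were not.

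In RiboTag, ribosome-bound Sfxn1 was higher in D1 and Ankk1 higher in D2 under both sex labels, while Ncam1 and Gm11149 did not pass the test. The study's rule called Sfxn1 alone among the 4 neighbours tested, against 2.56% of 6784 genes in the male comparison (1.62% higher in D1, 0.943% in D2) and 1.9% of 7057 genes in the female one (1.18% and 0.723%). In both sexes Sfxn1 and Ankk1 reached the filter's 0.1 FPKM only in the group in which they were higher. In males Sfxn1 had an FPKM of 0.234, 0.263 and 0.288 at the lowest, median and highest D1 library and of 0.0491, 0.0560 and 0.0629 in D2. The log2 change was -2.23 ± 0.08 (4.69-fold, adjusted p = 8.62e-16). In females it had an FPKM of 0.335, 0.283, 0.307, 0.279 and 0.307 in D1 numbers 1, 2, 4, 5 and 6, and of 0.0531, 0.0612, 0.0619, 0.0577 and 0.0663 in D2 numbers 1, 2, 3, 5 and 6. The groups did not overlap in either sex, as for 2.18% of tested genes in males and 2.08% in females, and the female change was -2.35 ± 0.08 (5.10-fold, adjusted p = 6.52e-14). Drd1 changed by -1.94 in males and -1.91 in females.

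Ankk1 had an FPKM of 0.0211, 0.0511 and 0.0588 in male D1 and of 0.148, 0.252 and 0.300 in male D2 libraries. Its log2 change was 2.27 ± 0.20 (4.84-fold, adjusted p = 1.73e-08). In females the FPKM was 0.0437, 0.0341, 0.0474, 0.0212 and 0.0595 in D1 and 0.300, 0.221, 0.263, 0.277 and 0.211 in D2, and the log2 change was 2.58 ± 0.19 (5.97-fold, adjusted p = 5.51e-09). Every D2 library was above every D1 library in each sex, as for 2.3% and 2.71% of tested genes. The study's rule did not call Ankk1, because its mean normalized counts of 57.1 and 61.5 were below the 25th percentile of tested genes; on the adjusted p alone, 4.08% of tested genes passed with D2 higher in males and 1.97% in females.

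Ttc12 was near the limit of detection in ribosome-bound RNA and did not pass the FPKM filter. It had 4 to 17 counts per library in male D1 and 35 to 62 in male D2, and 4 to 12 in female D1 and 56 to 75 in female D2, with no overlap in either sex. The mean log2 CPM was higher in D2 by 2.38 in males (exact permutation test, two-sided, p = 0.0021645) and by 2.71 in females (exact permutation test, two-sided, p = 0.00793651), each the smallest p these group sizes can give. In the fit without the FPKM filter the changes were 2.41 ± 0.21 (adjusted p = 2.99e-08) and 2.75 ± 0.22 (adjusted p = 2.24e-07), where 3.37% of 10677 and 1.53% of 10941 genes passed on the adjusted p with D2 higher.

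The 4 other neighbours of Drd1 held 0 to 9 counts in every RiboTag library and at most 0.0459 FPKM. Their D2 less D1 differences in mean log2 CPM ran from -0.32 to 0.31 in males and from -0.64 to 0.07 in females, and none passed (exact permutation tests, two-sided, p = 0.365 to 0.881). At these counts the size of a difference in RiboTag could not be read with any precision. The change of Gm34557 nonetheless differed from that in whole cell-FACS, as given below, while the other 3 did not pass that test. Ncam1 changed by 0.12 ± 0.04 in males (adjusted p = 0.0886) and -0.05 in females (adjusted p = 0.743), and Gm11149 by 0.09 ± 0.04 (adjusted p = 0.288) and -0.00 (adjusted p = 0.991). In males the FPKM of Ncam1 was 0.207 to 0.237 in D1 and 0.236 to 0.253 in D2, which met at their edges.

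Without the 6 libraries whose Xist went against the male label, D1 numbers 5 and 6 and D2 numbers 1, 3, 4 and 5 remained. In that fit 6431 genes were tested and 106 were called higher in D1 and 77 in D2. Sfxn1 was at -2.34 (adjusted p = 2.19e-10) and Ankk1 at 2.55 (adjusted p = 1.43e-04), while Ncam1 at 0.14 and Gm11149 at 0.12 did not pass. Somatostatin and neuropeptide Y, markers of GABA interneurons, were also called higher in D1 in RiboTag of both sexes, and the summed FPKM of 4 such markers was 5.71 to 7.23 in male D1 and 2.25 to 4.79 in male D2 libraries. The summed FPKM of 4 cholinergic interneuron markers was 0.0278 to 0.111 in male D1 and 0.252 to 0.446 in male D2. The part of these cells in the neighbours' levels was not tested.

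**Figure D2:**
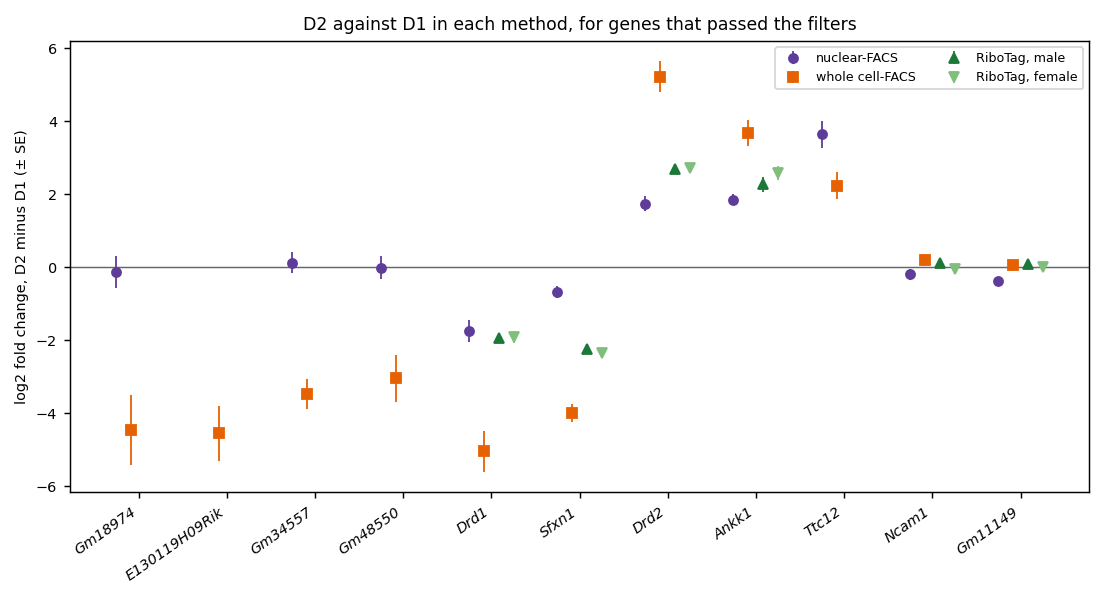
The log2 fold change of D2 over D1 with its standard error for Drd1, Drd2 and each neighbour that passed the filters, by method. Sfxn1 lies below 0 and Ankk1 above 0 in all 4 comparisons, and the non-coding Drd1 neighbours lie below -3 in whole cell-FACS and near 0 in nuclear-FACS.

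Whether the methods differed was tested as the difference of their D2 over D1 changes, on genes that passed the count filter alone. Whole cell-FACS and nuclear-FACS differed for 7 of the 9 neighbours, in a background of 21.9% of 29902 genes. The D1 excess was larger in whole cell-FACS for Sfxn1 (difference -2.26 ± 0.28, adjusted p = 3.82e-06), Gm34557 (-2.45 ± 0.43, adjusted p = 2.11e-04), E130119H09Rik (-3.76 ± 0.91, adjusted p = 0.00359) and Gm18974 (-3.19 ± 1.04, adjusted p = 0.0263). The difference was positive for Ankk1 (3.17 ± 0.36, adjusted p = 8.24e-07), Ncam1 (1.58 ± 0.31, adjusted p = 6.84e-04) and Gm11149 (1.65 ± 0.34, adjusted p = 9.10e-04). It did not pass for Gm48550 (-1.73 ± 0.82, adjusted p = 0.111) or Ttc12 (-0.32 ± 0.34, adjusted p = 0.462).

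These differences carry the nuclear scaling shift given above. Among genes that passed the FPKM filter of both methods, Sfxn1 (-3.30), Gm34557 (-3.62), Gm18974 (-4.37), Gm48550 (-3.09, adjusted p = 0.00531) and Ankk1 (1.78, adjusted p = 0.00488) were called. Ncam1 (0.36, adjusted p = 0.146), Gm11149 (0.43, adjusted p = 0.0511) and Ttc12 (-1.42, adjusted p = 0.0599) were not. Of all 8044 genes in that fit, 504 were called with a negative difference and 715 with a positive one. The larger D1 excess of Sfxn1, Gm34557 and Gm18974 in whole cell-FACS and the larger D2 excess of Ankk1 therefore held under both scalings, while the differences of Ncam1 and Gm11149 held under one.

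Male RiboTag and whole cell-FACS differed for 2 of 9 neighbours, in a background of 0.087% of genes. The D2 over D1 change was higher in RiboTag for Gm34557 (3.63 ± 0.60, adjusted p = 0.0026) and Sfxn1 (1.77 ± 0.28, adjusted p = 0.00131). For Sfxn1 the D1 excess was smaller in RiboTag. For Gm34557 the RiboTag side rests on 18 counts summed over male D1 and 23 over male D2, too few to read its size there. Ankk1 at -1.62 ± 0.36 (adjusted p = 0.0566) did not pass, nor did Ttc12 at 0.03 (adjusted p = 1.0). Without the 6 libraries with discordant Xist only Gm34557 of the neighbours was called, and Sfxn1 was at 1.67 (adjusted p = 0.717). Of all 32106 genes in that fit, 1 was called with a negative difference and 2 with a positive one.

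Male RiboTag and nuclear-FACS differed for Ankk1 (1.55 ± 0.38, adjusted p = 0.0071), Ncam1 (1.38 ± 0.33, adjusted p = 0.00538) and Gm11149 (1.54 ± 0.35, adjusted p = 0.00446), in a background of 14.6% of genes. Under the FPKM filter of both methods only Sfxn1 of the neighbours was called (-1.68, adjusted p = 1.83e-04), with Ankk1 at 0.29 (adjusted p = 0.736) and Ncam1 at 0.19 (adjusted p = 0.558). Of all 4713 genes in that fit, 192 were called with a negative difference and 650 with a positive one. Without the 6 discordant libraries no neighbour was called. The difference between the libraries labelled female and male, 6 of the latter with discordant Xist, did not pass for any of the 5 neighbours tested in RiboTag, with or without those 6 libraries (without them, adjusted p = 0.681 for Ncam1 to 0.988 for Ankk1). Of all 11133 genes 0 passed edgeR's test there and 753 had an unadjusted p under 0.05, and DESeq2 called none of the neighbours.

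The level of each gene was next set against the background of the same library, by distance from the receptor. In whole cell D1 the medians on the Drd1 side were 268 times background for Drd1, 40.8 for Sfxn1, 11.8 for Gm48550, 21.7 for Gm34557, 17.4 for E130119H09Rik and 12.5 for Gm18974. In whole cell D2 the same genes were at 8.43, 3.03, 1.52, 2.40, 0.408 and 0. The level of these 4 distal neighbours in D1 thus did not fall in order of distance, and lay at 11.8 to 21.7 times background between 74.5 and 160 kb.

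The genes of the same windows that were not in the list were lower. In whole cell D1, Gm18473 (a processed pseudogene at 85.2 kb, beyond Sfxn1) was at 4.84 times background, with 0 in D2 and a log2 change of -4.16 ± 1.23 that did not pass (adjusted p = 0.0950). The histamine receptor gene Hrh2 at 136 kb was at 2.81 in D1 and 2.52 in D2, Gm16578 at 164 kb at 2.06 and 2.92, and Gm48615 at 190 kb at 0.520 and 0. On the other side, Gm48548, 272 kb from Drd1, was at 2.65 in D1 and 0.257 in D2.

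On the Drd2 side in whole cell D2, Drd2 was at a median of 95.1 times background, Ankk1 at 27.4, Ttc12 at 12.5, Ncam1 at 6.90 and Gm11149 at 8.76. In whole cell D1 these were at 1.96, 1.73, 2.07, 6.28 and 9.13, so Drd2, Ankk1 and Ttc12 lay close to background there and Ncam1 and Gm11149 did not. Gm4894, 60.0 kb before the Drd2 start, was at 1.42 in D1 and 1.76 in D2. In nuclear-FACS the D1 and D2 medians were 39.1 and 2.50 for Sfxn1, 18.3 and 2.56 for Gm34557, 25.7 and 8.58 for Ankk1, 3.39 and 7.22 for Ttc12 and 46.3 and 5.66 for Ncam1. The D2 nuclear libraries held more background, and Ankk1 was higher in D2 by FPKM and higher in D1 as a multiple of background, by the medians. The same held for Drd2, with medians of 46.7 times background in D1 and 16.6 in D2. The Ttc12 median was higher in D2 on both scales, but as a multiple of background its groups overlapped, with nuclear D1 numbers 1 (8.09) and 2 (10.8) above the highest D2 library (7.86).

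**Figure D3:**
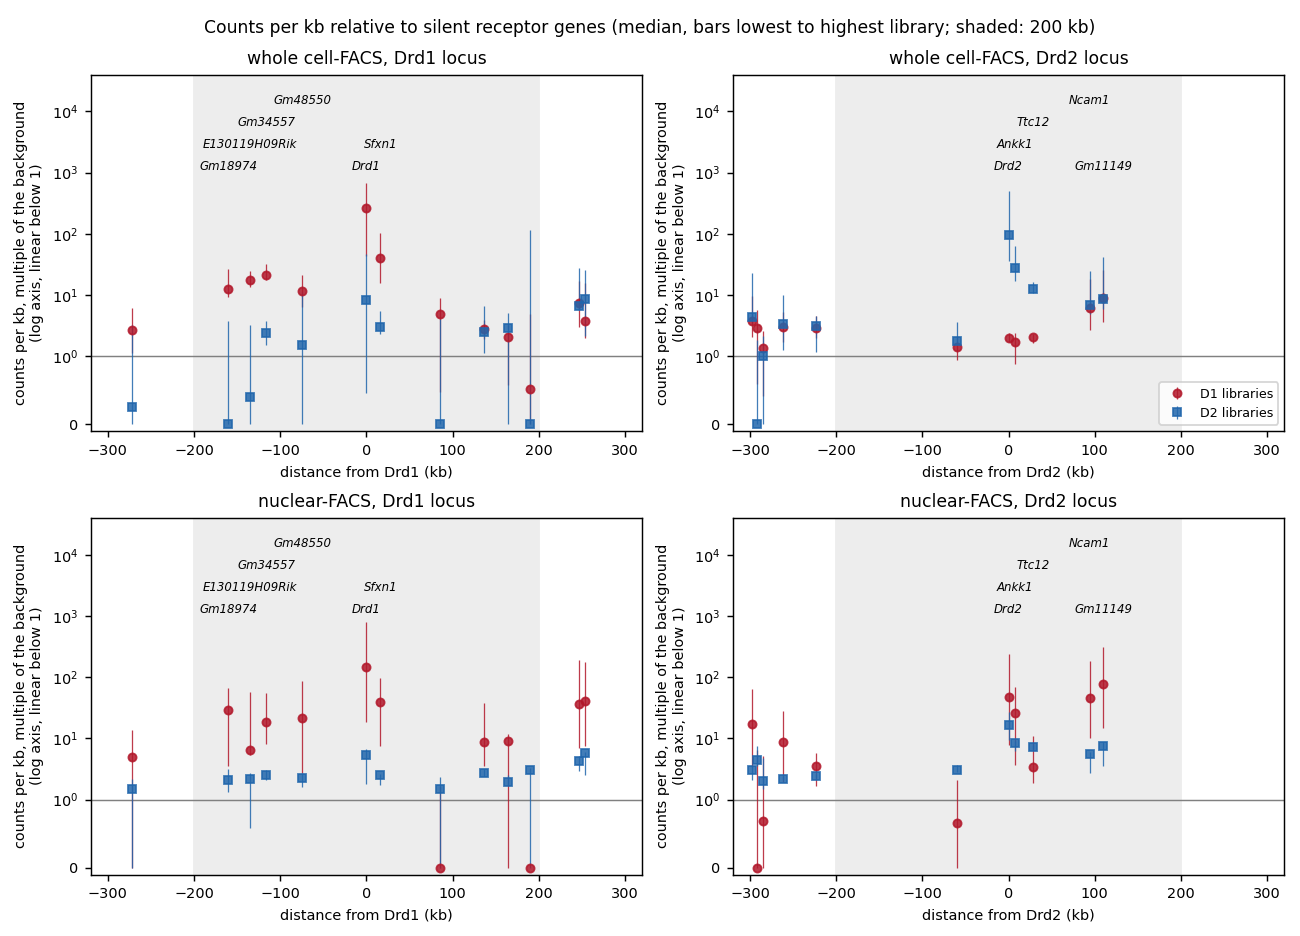
Median times background (bars from lowest to highest library) against distance from Drd1 or Drd2, for whole cell-FACS and nuclear-FACS, with the 200 kb windows shaded. In whole cell-FACS the D1 points of Sfxn1 and the 4 distal Drd1 neighbours sit at 11.8 to 40.8 and their D2 points at 0 to 3.03, and Ankk1 and Ttc12 show the opposite order beside Drd2.

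With the background of each library subtracted, all 7 whole cell calls were kept, Sfxn1 moving to -4.62, Gm34557 to -4.31, E130119H09Rik to -5.89, Ankk1 to 4.70 and Ttc12 to 2.91. In nuclear-FACS the 3 calls were also kept, at -1.12 for Sfxn1, 2.16 for Ankk1 and 4.42 for Ttc12. After this subtraction, 136 of all 19132 genes tested in whole cell-FACS were called higher in D1 and 46 higher in D2. In nuclear-FACS, 982 of 10842 genes were called higher in D1 and 645 higher in D2, a far larger share. Within whole cell D1, the neighbours moved differently with the background share of counts. In the libraries with the lowest (13.5%) and the highest (52.4%) share, D1 numbers 6 and 8, the FPKM of Gm34557 was 3.40 and 5.79, and that of Sfxn1 was 11.0 and 4.48.

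As a multiple of background, Gm34557 kept to 17.6 to 32.5 across the 8 whole cell D1 libraries, while Sfxn1 ran from 15.9 to 105. In the nuclear D2 libraries, where the share ran from 32.4 to 52.2%, Ttc12 had its lowest FPKM (1.23) in the library with the lowest share and its highest (1.65) in that with the highest. There Ttc12 stayed between 6.60 and 7.86 times background, and in whole cell D2 between 10.8 and 16.6. What part the background of a library had in these levels was not tested.

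**Figure D4:**
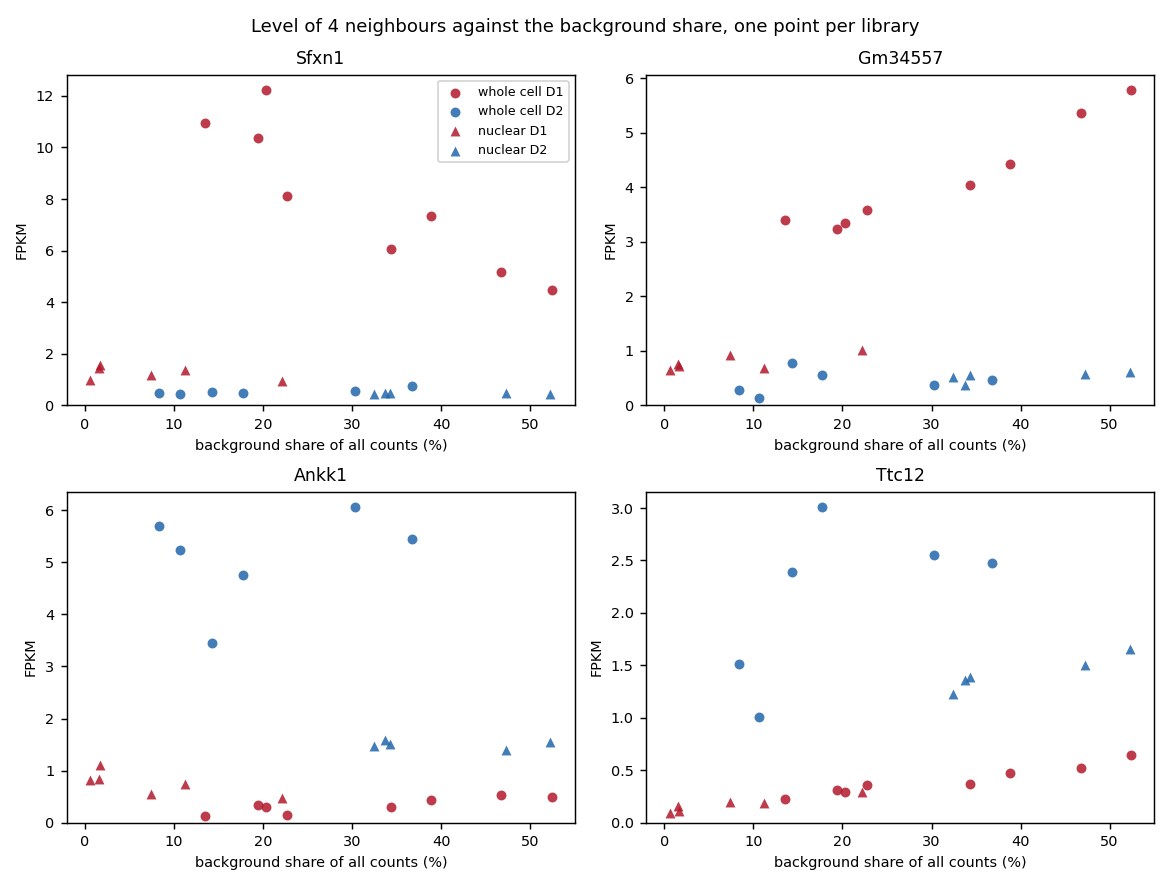
FPKM of Sfxn1, Gm34557, Ankk1 and Ttc12 in each whole cell-FACS and nuclear-FACS library against the background share of its counts in percent, with D1 in red and D2 in blue. In whole cell D1, Gm34557 is highest (5.79) and Sfxn1 lowest (4.48) in the library with the highest share, 52.4%.

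Beyond the 9 neighbours and the 2 receptors, 70 genes lay within 1 Mb of either locus. In whole cell-FACS 26 of them were tested and 1 was called, Gprin1 at 681 kb from Drd1 (-0.70 ± 0.16, adjusted p = 0.0390). In nuclear-FACS 13 were tested and 1 was called, the complexin gene Cplx2 at 316 kb (-1.95 ± 0.40, adjusted p = 0.0101), which was at -0.27 in whole cell-FACS and -0.02 in male RiboTag. In male RiboTag 15 were tested and 1 was called, the synuclein gene Sncb at 703 kb (-0.40 ± 0.07, adjusted p = 5.68e-04), which was at -0.18 in females (adjusted p = 0.402), and in female RiboTag 0 of 15 were called. These counts stand against 0.984% of all tested genes called in whole cell-FACS, 12.2% in nuclear-FACS, 2.56% in male and 1.9% in female RiboTag. Apart from the receptors, Sfxn1, Ankk1 and Ttc12, no gene within 1 Mb was called in more than 1 method. The share of all genes called in more than 1 method is not given here. With so few window genes tested, this does not set the neighbours apart. Without the FPKM filter, the non-coding 9530014B07Rik at 412 kb had a whole cell change of -4.26 ± 1.10 that did not pass (adjusted p = 0.179), while Gm4894 had a nuclear change of 2.51 (adjusted p = 0.0486).

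**Figure D5:**
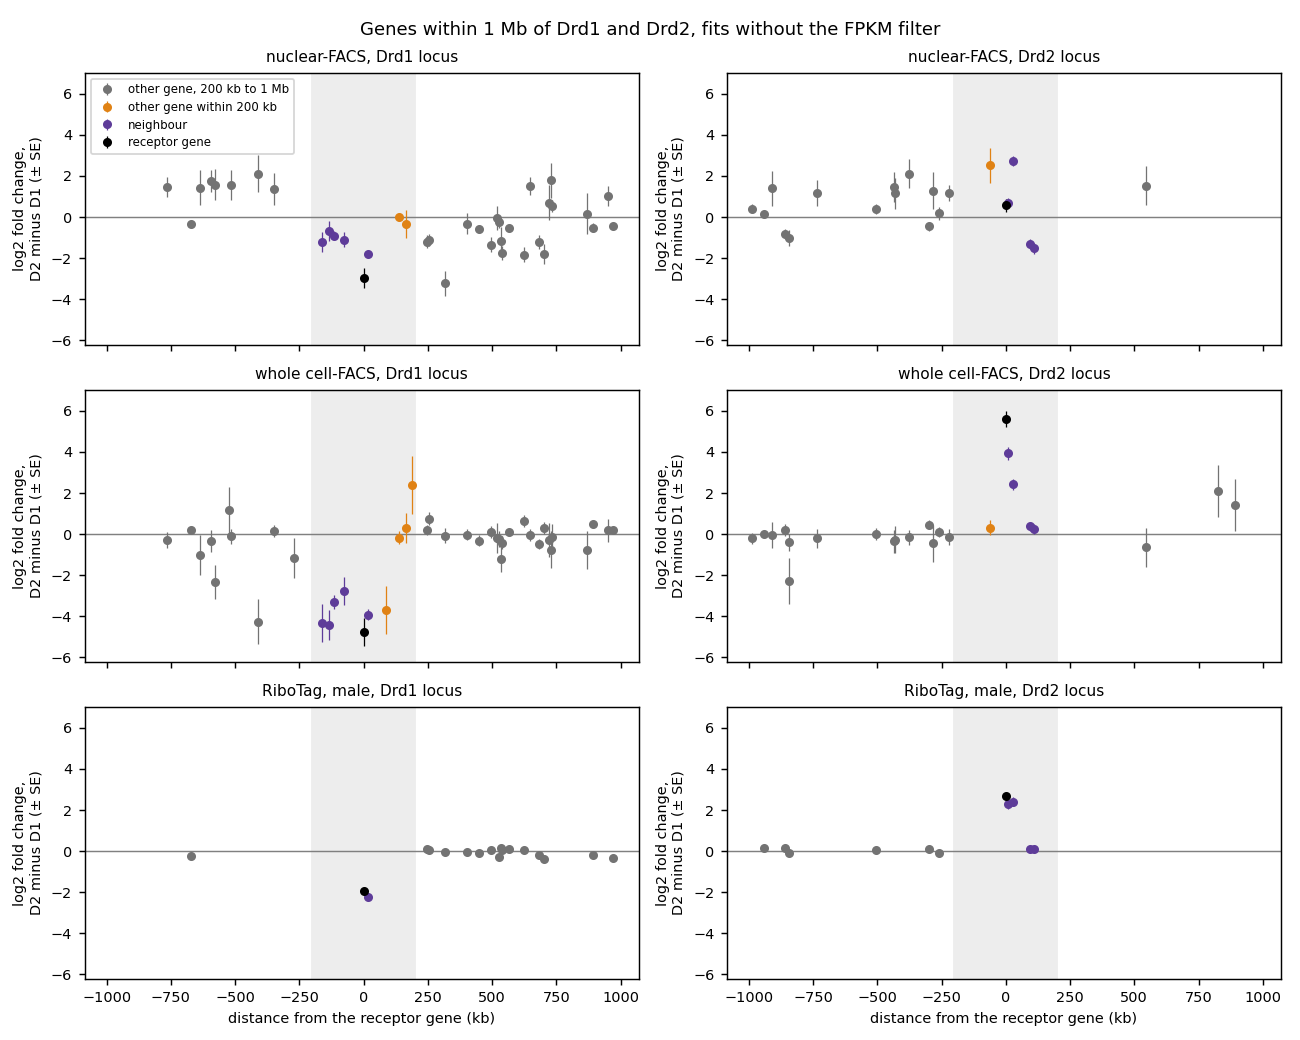
The log2 fold change of D2 over D1 with its standard error, in fits without the FPKM filter, for genes within 1 Mb of Drd1 and Drd2 in nuclear-FACS, whole cell-FACS and male RiboTag. Among the neighbours in whole cell-FACS, Sfxn1, Gm34557 and E130119H09Rik are called below 0 and Ankk1 and Ttc12 above 0. The gene 9530014B07Rik, 412 kb from Drd1, also lies far below 0 there but did not pass.

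None of the relatives and partners of the neighbours was called in any comparison. Of 4 other sideroflexin genes 2 were tested in nuclear-FACS, 3 in whole cell-FACS and 1 in RiboTag of each sex. None of 4 receptor interacting kinase genes, the relatives of Ankk1, passed the filters in any method. Of 10 dynein arm assembly genes 9 were in the table, and 3 of these were tested in whole cell-FACS and 1 in RiboTag of each sex. Of 8 partners and relatives of Ncam1, 4, 5, 3 and 3 were tested in nuclear-FACS, whole cell-FACS, male and female RiboTag, with Nrcam at -0.18 in males (adjusted p = 0.0384) under the fold threshold.

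Across all 47 libraries and 10488 genes, the genes most like each neighbour were found by Pearson's r of log2 CPM centred within each method, as a description in which points of one group share cell type and preparation. Sfxn1 was most like Pdyn (the dynorphin precursor, r = 0.928), Cntnap3 (0.918) and Gnb4 (0.892), with Drd1 at 0.874 and rank 6. Ankk1 was most like Drd2 (0.963), the adenosine receptor gene Adora2a (0.903) and Gm37711 (0.892). Ttc12 was most like Ankk1 (0.816), Plxdc1 (0.799) and Ptprm (0.783), with Drd2 at rank 4 (0.771). Ncam1 was most like Gm11149, with which it shares reads (0.975), followed by Ankrd11 (0.966) and Crebbp (0.962).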

How the data were processed

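Total RNA of single mice was sequenced after a ribosomal RNA depletion kit, aligned by the authors with HISAT2 2.0.5 to GRCm38 and counted with featureCounts over whole gene bodies of Ensembl release 90, without strand and with multimapping reads left out. The deposited table holds these raw counts per gene, not normalized by the authors, in 49 columns. Here 47 libraries were analysed: 2 lanes of whole cell D2 number 3 were summed, and 1 repeat column of whole cell D1 number 1 was left out, since 1 sample's labels gave no group that matched the columns. The series' design lists 9 D1 and 7 D2 whole cell samples, where 8 and 6 libraries were analysed here. Gene positions and spans came from GENCODE M21, which matched 52489 gene IDs (99.7%).

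Genes over 1 FPM in 2 or more libraries were kept. The nuclear-FACS and whole cell-FACS fits further asked for 1 FPKM or more in any library and no library above 50000, and the RiboTag fits for 0.1 FPKM or more in 2 libraries. FPKM used gene span and DESeq2 size factors over all genes of a comparison. D1 and D2 were compared with the quasi-likelihood test of edgeR 4.0.16 in R 4.3.3 on TMM-scaled counts, with Benjamini-Hochberg adjustment over all genes tested. A gene was called after the study's rule: an adjusted p of at most 0.05, a log2 change over 0.38 either way, an average size-scaled count past the 25th percentile and, in nuclear-FACS, a standard error under the 75th. Differences between methods were tested as contrasts in the same way on genes that passed the FPM filter, with the adjusted p alone as the call. Methods were prepared separately, so method and batch cannot be told apart in those contrasts. Members outside a fit were tested by an exact two-sided permutation of mean log2 CPM (prior count 1), with 11 such tests and unadjusted p. DESeq2 1.42.0, other filters and scalings, background subtraction and leaving out each library were alternatives. Counts of 16355 genes were simulated for whole cell-FACS, with 100 genes changed at each size, all above the 25th percentile of mean level. On the adjusted p alone, the fit recovered 74% of 4-fold and 87% of 8-fold changes. Each simulated gene had the spread typical of its level, so recovery of weaker or more variable genes was not measured. The total count of a library sets its counting error, and standard errors cover the spread between these mice.

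The members and gene lists were chosen with earlier results of these data known. Genes named were the members, the receptors, called genes within 1 Mb or among relatives, genes in the members' spans, and for 4 members the 3 most correlated genes. Other genes of the windows, 9530014B07Rik, Nrcam and markers were named after their values were seen, and leaving out libraries by Xist was chosen after seeing the data.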

Additional observations from a re-analysis of the deposited data

Results flagged for a closer look

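Of 72 sets of libraries examined, 8 held a library far from the others of its group, where chance alone gives about 1 in 20. In whole cell D2, Sfxn1 was at 0.757 FPKM in number 4 (next 0.550), Gm18974 at 0.742 in number 6 (next 0.0270) and E130119H09Rik at 0.659 in number 2 (next 0.183). In male RiboTag D1, Gm34557 was at 0.0223 FPKM in number 2 (next 0.00631) and Ankk1 at 0.0211 in number 6 (next 0.0474). In male RiboTag D2, Gm18974 was at 0.0131 FPKM in number 6 (next 0), E130119H09Rik at 0.0459 in number 1 (next 0.0167) and Gm11149 at 0.532 in number 2 (next 0.564).

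The D2 over D1 change differed between whole cell-FACS and nuclear-FACS by 3.17 for Ankk1, 1.58 for Ncam1, 1.65 for Gm11149, -3.19 for Gm18974, -3.76 for E130119H09Rik, -2.45 for Gm34557 and -2.26 for Sfxn1 on the log2 scale. Between male RiboTag and nuclear-FACS it differed by 1.55 for Ankk1, 1.38 for Ncam1 and 1.54 for Gm11149. Between male RiboTag and whole cell-FACS it differed by 3.63 for Gm34557 and 1.77 for Sfxn1. Each passed edgeR's test of the difference itself, with the adjusted p given with the comparisons.

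The repeat column of whole cell D1 number 1, outside the main fits, held Gm34557 at 23.6 times background, where number 1 itself held 23.1 and the whole cell D2 libraries had a median of 2.40.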

How the results depend on the processing

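Of 1077 values of single genes under an alternative, 982 kept their direction and side of the threshold, 45 lost a call, 21 gained one and 29 reversed, and 47 libraries were left out in turn. Causes of changes were not tested. Nuclear-FACS called 1130 genes and 3 neighbours: 7274 and 6 without the FPKM filter, 7299 and 5 without a filter on low counts. Leaving out 1 library gave 370 to 1489 genes and 2 to 4 neighbours (529, 691, 670, 370 and 436 genes without D2 number 1, 2, 3, 5 and 7). Whole cell-FACS called 161 genes and 7 neighbours: 34 without the FPKM filter and 34 without a filter on low counts, 699 with DESeq2, 328 with the repeat column as its own library and 487 with the lanes apart. Leaving out 1 library gave 59 to 618 genes and 5 to 7 neighbours (59, 88, 60, 65, 67, 84 and 618 without D1 number 1, 2, 3, 4, 5, 7 and 8, and 323, 284, 100, 107 and 76 without D2 number 1, 2, 3, 5 and 6). Male RiboTag called 174 genes and 1 neighbour: 333 and 2 without the FPKM filter, 681 and 3 without a filter on low counts, 631 and 2 on the adjusted p alone. Female RiboTag called 134 genes and 1 neighbour: 495 and 3 without a filter on low counts, 319 and 2 on the adjusted p alone.

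Whole cell-FACS and nuclear-FACS differed for 6555 genes, 1219 under the FPKM filter of both and 4194 to 6008 with a nuclear D2 library left out (4194 without number 5). RiboTag and nuclear-FACS differed for 4358 genes and 3 neighbours, 842 and 1 under the FPKM filter of both, 2617 to 4331 genes with a nuclear D2 library left out (2617 without number 5), and 12 and 0 without the libraries with discordant Xist. RiboTag and whole cell-FACS differed for 26 genes and 2 neighbours, 100 genes with DESeq2, 82 and 1 under the FPKM filter of both, and 3 and 1 without the discordant libraries. The libraries labelled female and male differed for 0 genes, and for 1 without female D1 number 4. The background share of male RiboTag D1 had a median of 0.0353%, and 0.0299% with receptor genes that no other gene overlaps.

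Same-numbered libraries did not deviate together (correlations of -0.261 to 0.261 in nuclear-FACS, -0.184 to 0.16 in whole cell-FACS, -0.0536 to 0.186 in male and -0.0185 to -0.00912 in female RiboTag), so the numbers do not pair them. With the replicate number as a block, nuclear-FACS called 0 genes and 0 neighbours, whole cell-FACS 11 and 3 (Sfxn1, Gm34557 and Ankk1) and female RiboTag 79 genes. Under that block Gm48550 was at 0.016 in nuclear-FACS and Ncam1 at 0.0063 in female RiboTag.

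The values that reversed had not passed in the reported fits. In nuclear-FACS, Gm34557 (reported at 0.12) was called at -0.91 without the FPKM filter (adjusted p = 0.0101) and at -0.89 without a filter on low counts (adjusted p = 0.0298), and was at -0.076 after background subtraction, Gm48550 at 0.000785 with DESeq2 size factors, and leaving out 1 library gave -0.087 to 0.13 for Gm34557, -0.30 to 0.056 for Gm18974 and -0.25 to 0.16 for Gm48550. Gm11149 was at -0.021 in whole cell-FACS after background subtraction. In female RiboTag it was at 0.011 without the FPKM filter, 0.030 without a filter on low counts and -0.033 to 0.023 with 1 library left out, and Gm48550 was at -0.0052 with a prior count of 5. Without the discordant libraries, Ttc12 was at 0.21 in RiboTag less nuclear-FACS, Gm18974 at -0.62 in RiboTag less whole cell-FACS (2.54 with them), and Sfxn1 at 0.018 and Ttc12 at -0.065 in female less male. Ttc12 was at -0.66 in RiboTag less whole cell-FACS after background subtraction.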
